A study of Homo sapiens with 12 samples.

Results

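The sirtuins are a family of 7 human genes, SIRT1 to SIRT7, whose products remove acetyl and related acyl groups from lysines. All 7 were followed by their gene symbol, which is a membership that uses no measured value. Each had exactly 1 row on the array, so no choice between rows was needed, and they made up 7 of the 18417 genes tested. The values came from Affymetrix Gene ST arrays of 2 established human cell lines labelled as erythroleukemia, UKE1 and HEL, both with the JAK2V617F mutation. There were 4 groups of 3 arrays: UKE1 cells given 250 nM ITF2357 for 6 h, UKE1 cells kept for 6 h with no drug, HEL cells given the same dose for 6 h, and HEL cells kept for 6 h with no drug. ITF2357, also called givinostat, inhibits histone deacetylases. The UKE1 medium held horse serum and hydrocortisone in both conditions and the HEL medium did not, so a difference between the lines cannot be told apart from a difference between their media. The triplicates are called independent, with no word on how the cultures were separated. Each p-value sets a difference between group means against how far arrays of a group lay apart, a spread shared over the 4 groups. That spread may be only technical.

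Sirtuins differ from the other histone deacetylases in their chemistry. They use NAD+ as a co-substrate and release nicotinamide, while the classical enzymes carry a zinc ion at which drugs such as ITF2357 bind. SIRT1, SIRT6 and SIRT7 work mainly in the nucleus, SIRT2 mainly in the cytosol, and SIRT3, SIRT4 and SIRT5 in mitochondria. The arrays measured their RNA and gave no information on enzyme activity or on acetylation.

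The regions around the transcription starts of 3 members are shown: SIRT1, which fell with the drug, and SIRT2 and SIRT3, which rose. The starts of SIRT2 and SIRT3 each lie head to head with that of another gene, 48 and 45 bases away. The same holds for SIRT6, 126 bases from ANKRD24, and SIRT6 was called in neither line. SIRT4 rose although its nearest such start, that of PXN, lies 26459 bases away. A link between these regions and the changes with the drug was not tested. The sequences are those of RefSeq on GRCh38.p14, from 250 bases before the start to 50 bases from it, written 5′ to 3′ on the strand of the gene. Capitals mark matches on either strand to 9 motifs, which may overlap: the GC box GGGCGG, the CCAAT box, the E-box CACGTG, the ETS motif CCGGAA, the STAT motif TTCNNNGAA, the GATA motif AGATAA, the AP-1 motif TGANTCA, the forkhead motif TGTTTAC and the TATA box TATAAA.
SIRT1, chr10:67884406-67884705, plus strand: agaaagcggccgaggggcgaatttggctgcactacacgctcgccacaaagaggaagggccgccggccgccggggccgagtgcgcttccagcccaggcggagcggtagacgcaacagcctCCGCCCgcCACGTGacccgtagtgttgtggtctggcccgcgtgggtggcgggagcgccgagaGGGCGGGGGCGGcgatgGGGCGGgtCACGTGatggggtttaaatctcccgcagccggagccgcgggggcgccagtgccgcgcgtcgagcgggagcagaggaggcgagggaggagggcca
SIRT2, chr19:38899569-38899868, minus strand: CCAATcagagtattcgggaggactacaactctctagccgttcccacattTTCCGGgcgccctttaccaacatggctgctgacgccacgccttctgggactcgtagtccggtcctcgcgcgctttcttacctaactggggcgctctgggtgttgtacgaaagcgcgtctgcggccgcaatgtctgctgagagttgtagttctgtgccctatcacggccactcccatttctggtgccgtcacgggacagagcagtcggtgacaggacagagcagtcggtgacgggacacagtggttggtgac
SIRT3, chr11:236882-237181, minus strand: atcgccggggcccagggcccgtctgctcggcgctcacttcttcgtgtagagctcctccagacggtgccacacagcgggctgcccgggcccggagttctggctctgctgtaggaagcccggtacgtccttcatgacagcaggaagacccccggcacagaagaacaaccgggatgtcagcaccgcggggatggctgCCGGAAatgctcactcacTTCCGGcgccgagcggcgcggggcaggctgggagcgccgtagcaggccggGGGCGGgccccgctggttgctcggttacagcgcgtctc
The SIRT1 window held 2 E-boxes, 123 and 44 bases before the start, and 4 GC boxes. An E-box was found in 7.26% of the 35116 promoter windows of the table and a GC box in 45.0%. The SIRT2 window held 1 CCAAT and 1 ETS motif, and the SIRT3 window 2 ETS motifs, 56 and 38 bases before the start, and 1 GC box. CCAAT was found in 34.6% of all windows and the ETS motif in 17.2%. None of the 6 sirtuins with a window in the table, SIRT7 not being among them, held the STAT, AP-1, forkhead or TATA letters, which were found in 7.66%, 7.71%, 3.42% and 11.5% of all windows. A match is a description of letters only.

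With ITF2357, SIRT2, SIRT3, SIRT4 and SIRT7 rose in both lines and SIRT1 fell in both. SIRT5 fell in UKE1 and was not called in HEL, and SIRT6 was called in neither line. In UKE1 the calls of SIRT1, SIRT3 and SIRT5 depended on the setting, being lost in 7, 2 and 12 of 20 others. A gene was called when its limma adjusted p, corrected over all genes, was under 0.05. Of the 7 members, 4 rose and 2 fell in UKE1 and 4 rose and 1 fell in HEL. The 6 calls in UKE1 came down to 3 without untreated UKE1 replicate 2 or treated UKE1 replicate 2. Calls were common on these arrays: 44.3% of all genes were called in UKE1 and 42.4% in HEL, and 14.0% rose in both lines while 12.9% fell in both. The median log2 change of the members was 0.26 in UKE1 and 0.31 in HEL, against 0.01 and -0.01 over all genes. All changes were modest, between 1.02-fold and 1.63-fold.

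**Figure D1:**
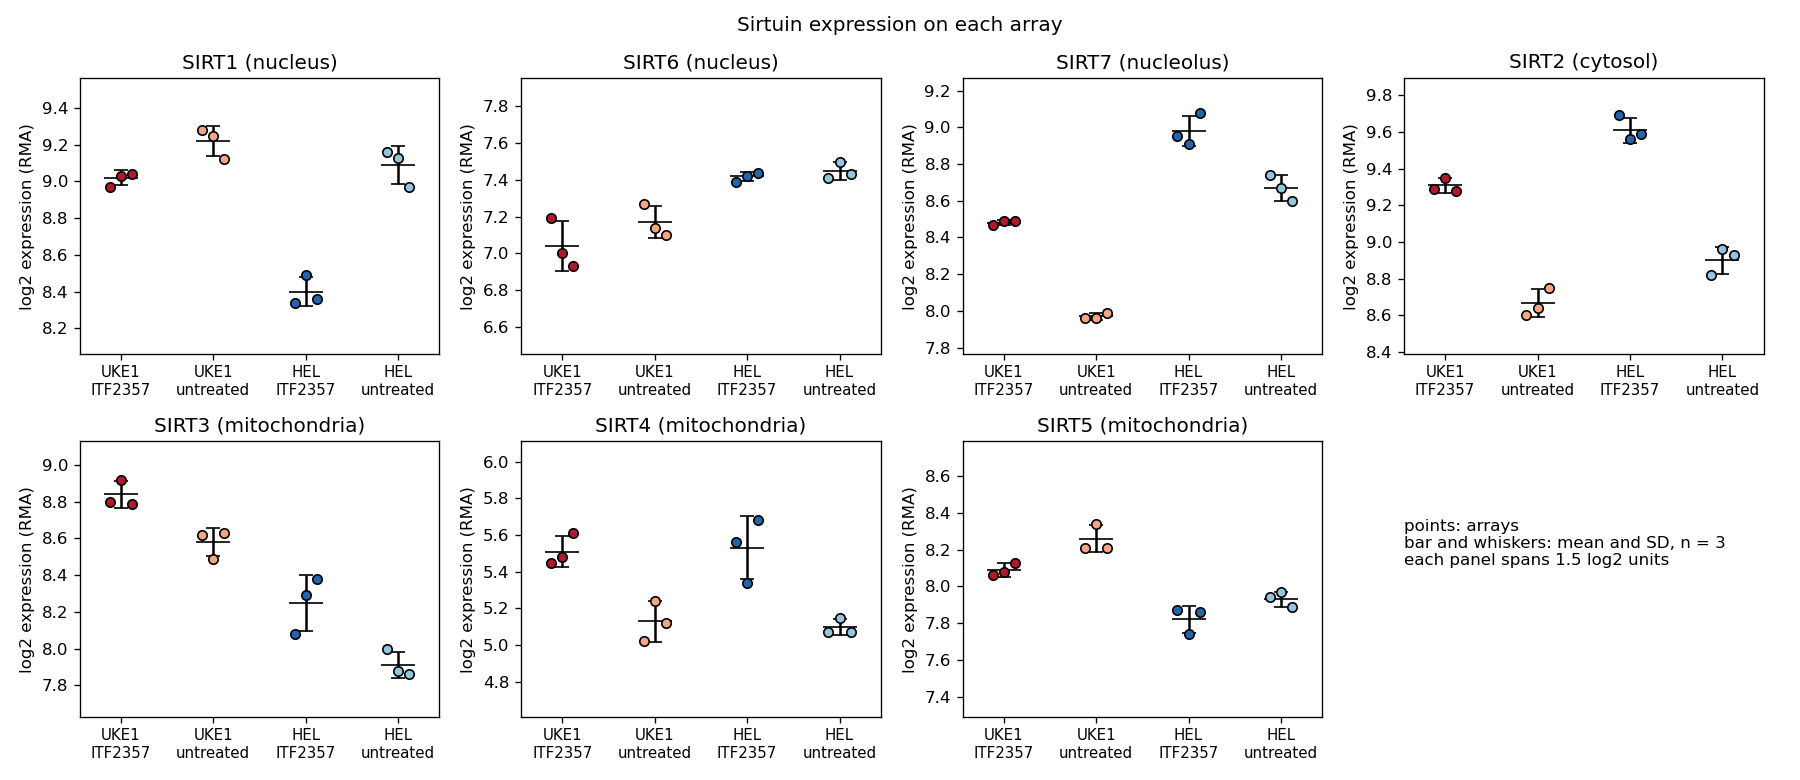
Log2 expression of each sirtuin on the 12 arrays, with the mean and SD of the 3 arrays of each group; the vertical axis of each panel covers the same span, and levels are not comparable between panels. The mean of SIRT1 was 8.40 in HEL cells with ITF2357 and at least 9.02 in the other groups, and SIRT2 was at 9.28 or higher on the ITF2357 arrays and at 8.96 or lower on the untreated ones.

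SIRT1, which deacetylates histones and transcription factors such as the FOXO proteins, was the nuclear member that fell. In UKE1 cells its log2 level was 8.97, 9.03 and 9.04 with ITF2357, against 9.28, 9.25 and 9.12 without drug. In HEL cells it was 8.34, 8.49 and 8.36 with ITF2357, against 9.16, 9.13 and 8.97 without. The treated arrays lay below all untreated arrays of their line in both cases, but the gap was narrow in UKE1 and wide in HEL. Groups without overlap, in either direction, were seen in 53.9% of all genes in UKE1 and 49.0% in HEL. The fall was 1.15-fold in UKE1 (log2 change -0.20 ± 0.071 SE, adjusted p = 0.0329) and 1.62-fold in HEL (log2 change -0.69 ± 0.071 SE, adjusted p = 2.32e-06). A change as large in either direction was seen in 46.8% of all genes in UKE1 and 10.1% in HEL. The UKE1 call did not hold in 7 of 20 other settings. It was lost after quantile normalization (-0.17, adjusted p = 0.0567), with all rows tested (-0.20, adjusted p = 0.053), without untreated UKE1 replicate 1 (-0.17, adjusted p = 0.114) or replicate 2 (-0.19, adjusted p = 0.0924), and without treated UKE1 replicate 1, 2 or 3 (-0.18, -0.21 and -0.22, adjusted p = 0.105, 0.0633 and 0.0536). The HEL call held in all 20.

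SIRT1 was also the only member whose difference in response between the lines was called. The change in UKE1 minus that in HEL was 0.49 ± 0.10 (SE), with an interval at 95% confidence of 0.28 to 0.71 and an adjusted p = 0.00286, and this call held in all 19 other settings that give it. Differences of this kind were called for 23.9% of all genes. For SIRT7 the difference was 0.20 (interval 0.01 to 0.39, adjusted p = 0.115), and quantile normalization took it past the threshold (0.25, adjusted p = 0.0357). The other 5 members had differences between -0.10 and -0.04, with adjusted p-values from 0.536 to 0.849. Their intervals reached from -0.33 at the lowest to 0.22 at the highest, so smaller unequal responses were not detectable with 3 arrays a group.

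SIRT7, a deacetylase linked to the nucleolus and to transcription of ribosomal RNA genes, was the nuclear member that rose. Its log2 level in UKE1 was 8.47, 8.49 and 8.49 with ITF2357, against 7.96, 7.96 and 7.99 without. In HEL it was 8.95, 8.91 and 9.08 with ITF2357, against 8.74, 8.67 and 8.60 without. Treated and untreated arrays of a line did not overlap, as in 53.9% of all genes in UKE1 and 49.0% in HEL. UKE1 arrays of the same condition lay close together. SIRT7 rose 1.43-fold in UKE1 (log2 change 0.51 ± 0.0612 SE, adjusted p = 9.38e-06) and 1.24-fold in HEL (0.31 ± 0.0612, adjusted p = 0.000814).

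SIRT6, which acts on chromatin in DNA repair and in the control of glycolytic genes, was not called in either line. Its level was 7.19, 7.0 and 6.93 in UKE1 with ITF2357, against 7.27, 7.14 and 7.10 without. In HEL the values were 7.39, 7.42 and 7.44 with ITF2357, against 7.41, 7.50 and 7.43 without. The groups overlapped in both lines. The log2 change was -0.13 in UKE1 (interval -0.29 to 0.03, adjusted p = 0.174) and -0.03 in HEL (interval -0.19 to 0.13, adjusted p = 0.794). Without treated UKE1 replicate 1, its highest treated array there, the UKE1 value was -0.21 with an adjusted p = 0.0345.

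SIRT2, the cytosolic member, which deacetylates tubulin and regulators of mitosis, had the largest rise of the family in both lines. In UKE1 its log2 level was 9.29, 9.35 and 9.28 with ITF2357, against 8.60, 8.64 and 8.75 without. In HEL it was 9.69, 9.56 and 9.59 with ITF2357, against 8.82, 8.96 and 8.93 without. No treated array overlapped with an untreated one of either line. Within a line, such a separation was seen in 53.9% of all genes in UKE1 and 49.0% in HEL. SIRT2 rose 1.56-fold in UKE1 (log2 change 0.64 ± 0.0654 SE, adjusted p = 2.1e-06) and 1.63-fold in HEL (0.71 ± 0.0654, adjusted p = 8.95e-07). Changes as large were found in 13.0% of all genes in UKE1 and in 9.77% in HEL.

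Among the mitochondrial members SIRT3 and SIRT4 rose. SIRT3, the main deacetylase of the mitochondrial matrix, had levels of 8.80, 8.92 and 8.79 in UKE1 with ITF2357, against 8.62, 8.49 and 8.63 without. In HEL they were 8.08, 8.29 and 8.38 with ITF2357, against 8.00, 7.88 and 7.86 without. The groups did not overlap, as in 53.9% of all genes in UKE1 and 49.0% in HEL. Treated HEL replicate 1 came close to the untreated arrays. SIRT3 rose 1.20-fold in UKE1 (log2 change 0.26 ± 0.0807 SE, adjusted p = 0.0179) and 1.26-fold in HEL (0.33 ± 0.0807, adjusted p = 0.00372). The UKE1 call was lost without untreated replicate 2 (0.21, adjusted p = 0.0771) and without treated replicate 2 (0.22, adjusted p = 0.0791).

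SIRT4, which acts on lipoyl groups and other acyl groups of mitochondrial enzymes, was at 5.45, 5.48 and 5.61 in UKE1 with ITF2357, against 5.02, 5.24 and 5.12 without. In HEL it was at 5.56, 5.34 and 5.68 with ITF2357, against 5.07, 5.15 and 5.07 without. Again no treated array overlapped with an untreated array of its line, against shares of 53.9% of all genes in UKE1 and 49.0% in HEL. It rose 1.31-fold in UKE1 (log2 change 0.39 ± 0.0876 SE, adjusted p = 0.00227) and 1.35-fold in HEL (0.43 ± 0.0876, adjusted p = 0.00108). These standard errors were the largest among the 7 members.

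SIRT5, which removes succinyl, malonyl and glutaryl groups, was at 8.06, 8.08 and 8.13 in UKE1 with ITF2357, against 8.21, 8.34 and 8.21 without. In HEL it was at 7.87, 7.74 and 7.86 with ITF2357, against 7.94, 7.97 and 7.89 without. Treated arrays lay below the untreated ones in both lines, a separation in either direction that 53.9% of all genes showed in UKE1 and 49.0% in HEL. The log2 change was -0.17 ± 0.0623 (SE) in UKE1, with an adjusted p = 0.0435, and -0.11 in HEL (interval -0.24 to 0.03, adjusted p = 0.19). The UKE1 call was lost in 12 of 20 other settings. Among these, leaving out any single UKE1 array gave changes from -0.19 to -0.12 (adjusted p from 0.0513 to 0.178), the lowest in size without untreated replicate 2. Leaving out untreated HEL replicate 2 or treated HEL replicate 1, which enter only through the shared spread, gave -0.17 (adjusted p = 0.0512 and 0.0531). The average over both lines was -0.14 (adjusted p = 0.0174), and on that average 4 members rose and 2 fell, where 51.0% of all genes were called.

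**Figure D2:**
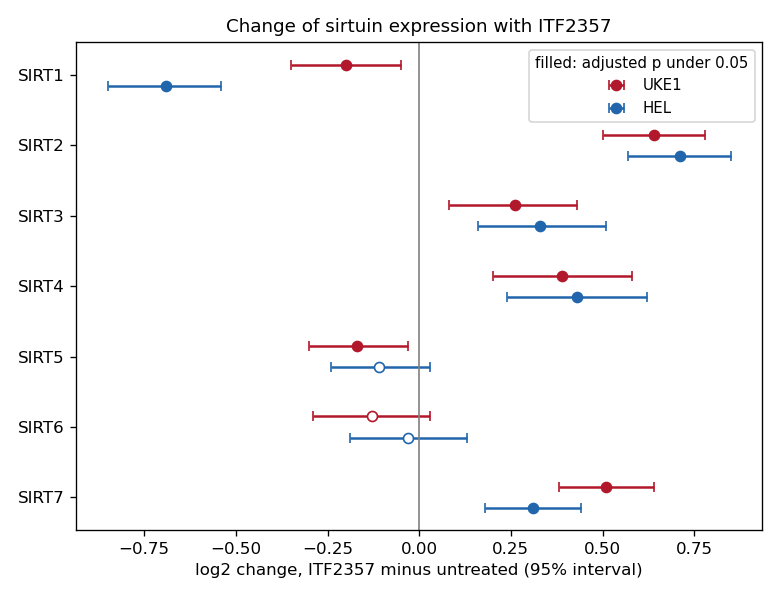
Log2 change of each sirtuin with ITF2357 against no drug in UKE1 and in HEL, with intervals at 95% confidence from the fit; filled points passed the threshold. SIRT2, SIRT3, SIRT4 and SIRT7 lie right of 0 in both lines, SIRT1 left of 0 with -0.20 in UKE1 and -0.69 in HEL, and SIRT6 at -0.13 and -0.03 has intervals that hold 0.

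Levels were also compared between the lines. With ITF2357, 3 members were higher in UKE1 than in HEL, 3 were lower and 1 was not called, where 68.0% of all genes were called. Without drug, 2 were higher in UKE1, 3 lower and 2 not called, where 67.7% of all genes were called. These counts are near the share over all genes and are no result about the sirtuins. SIRT3 was higher in UKE1, by 0.59 with ITF2357 (adjusted p = 1.75e-05) and by 0.67 without (adjusted p = 4.99e-06). SIRT5 was also higher in UKE1, by 0.27 with the drug (adjusted p = 0.00164) and by 0.33 without (adjusted p = 0.000355).

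SIRT7, SIRT6 and SIRT2 were lower in UKE1 than in HEL. The log2 difference of SIRT7, UKE1 minus HEL, was -0.50 with ITF2357 and -0.70 without (adjusted p = 5.92e-06 and 1.63e-07). For SIRT6 it was -0.38 with the drug and -0.28 without (adjusted p = 0.000412 and 0.00429), and for SIRT2 -0.30 and -0.24 (adjusted p = 0.000946 and 0.00538). The untreated SIRT2 difference was -0.15 after quantile normalization, with an adjusted p = 0.0595. SIRT1 was 0.62 higher in UKE1 with ITF2357 (adjusted p = 2.89e-06), whereas without drug the difference was 0.13 (interval -0.03 to 0.28, adjusted p = 0.127), or 0.22 after quantile normalization (adjusted p = 0.0104). SIRT4 showed no difference that could be called, with -0.01 with ITF2357 (interval -0.20 to 0.18) and 0.03 without (interval -0.16 to 0.22).

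**Figure D3:**
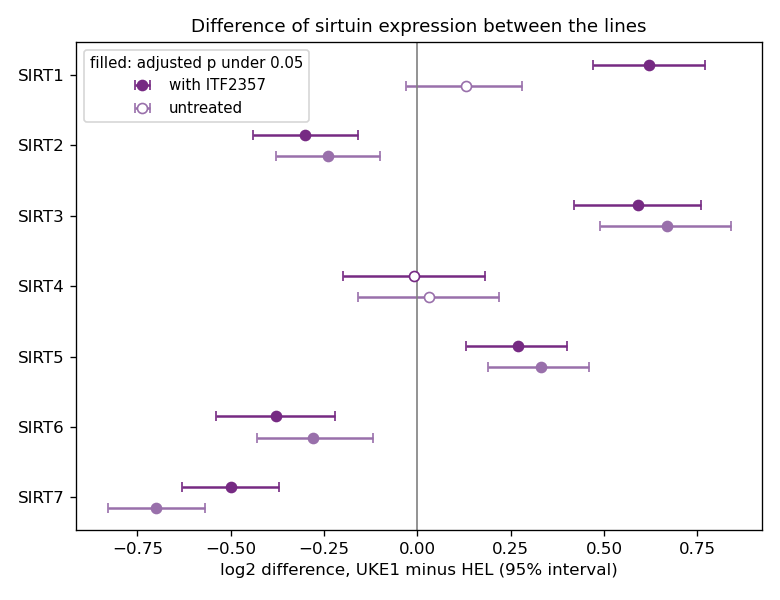
Log2 difference of each sirtuin between UKE1 and HEL, with ITF2357 and untreated, with intervals at 95% confidence from the fit; filled points passed the threshold. SIRT1 differs at 0.62 with ITF2357 and at 0.13 untreated, SIRT3 and SIRT5 lie right of 0 and SIRT2, SIRT6 and SIRT7 left of 0 in both conditions.

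The order of the 4 group means differed from gene to gene. For SIRT1 the order was untreated UKE1 (9.22), untreated HEL (9.09), treated UKE1 (9.02) and treated HEL (8.40), in which only the last step was called. For SIRT2 it was treated HEL (9.61), treated UKE1 (9.31), untreated HEL (8.90) and untreated UKE1 (8.67), and all steps were called, so that for this gene drug ranked above line. SIRT3 and SIRT7 were ordered by line first, as were SIRT5 and SIRT6 below. SIRT3 went treated UKE1 (8.84), untreated UKE1 (8.58), treated HEL (8.25) and untreated HEL (7.91). SIRT7 went treated HEL (8.98), untreated HEL (8.67), treated UKE1 (8.48) and untreated UKE1 (7.97). All steps were called in SIRT3 and in SIRT7.

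SIRT4 had treated HEL (5.53) and treated UKE1 (5.51) together, and below them untreated UKE1 (5.13) and untreated HEL (5.10) together, with only the middle step called. SIRT5 went untreated UKE1 (8.26), treated UKE1 (8.09), untreated HEL (7.93) and treated HEL (7.82), with the last step not called. SIRT6 went untreated HEL (7.45), treated HEL (7.42), untreated UKE1 (7.17) and treated UKE1 (7.04), with only the step between the lines called. In all, 14 of the 21 neighbouring steps were called. Such steps were not counted over all genes, so this number is no result about the sirtuins.

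The genes around the sirtuins were followed in lists of NAD+ metabolism, of SIRT1 regulators and of substrates. Of 21 genes of NAD+ synthesis and salvage, 2 rose and 4 fell in UKE1, and 7 rose and 3 fell in HEL, against the shares of 44.3% and 42.4% of all genes called in each line. The list's share of calls was 28.6% in UKE1 and 47.6% in HEL, and its median log2 change -0.02 and -0.05. The UKE1 split depended on the setting, with 4 rising and 3 falling when low values were left out, and 4 rising and 4 falling without treated HEL replicate 2. With only the groups compared, and with a trended and robust prior, 4 rose and 5 fell. NMRK1, the kinase that feeds nicotinamide riboside into NAD+, rose by 1.29 in UKE1 (adjusted p = 2.85e-07) and 0.99 in HEL (adjusted p = 3.46e-06). AFMID, of the route from tryptophan, rose by 0.73 and 0.46, and HAAO, further along that route, fell by 0.57 in UKE1 and 0.51 in HEL. NAMPT, the rate-limiting enzyme of salvage from nicotinamide, was added after its values were seen, with 0.16 in UKE1 (adjusted p = 0.0838) and a rise of 0.31 in HEL (adjusted p = 0.00235).

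In the list of NAD+ synthesis and salvage, the difference in response between the lines was called for 23.8% of the 21 genes. This is near the 23.9% of all genes and is no result about the list. The difference was above 0 for 1 called gene and below 0 for 4. Those called were KYNU, NMNAT1, NMNAT3, QPRT and NAPRT. NAPRT fell by 0.22 in UKE1 and had 0.12 in HEL (difference -0.34, adjusted p = 0.0131). KYNU, the kynureninase, fell by 0.75 in UKE1 and rose by 0.56 in HEL, a difference of -1.31 (adjusted p = 4.32e-05). NMNAT1, the nuclear enzyme of the last step, had 0.29 in UKE1 (adjusted p = 0.0566) and fell by 0.55 in HEL, and the difference of 0.84 was called (adjusted p = 0.00201). NMNAT3, its mitochondrial counterpart, had 0.18 in UKE1 and rose by 0.72 in HEL (difference -0.54, adjusted p = 0.00155). QPRT, of the tryptophan route, had -0.15 in UKE1 and rose by 0.48 in HEL (difference -0.63, adjusted p = 0.000961). The difference was not called for SLC25A51, the mitochondrial NAD+ carrier, which had -0.18 in UKE1 and fell by 0.35 in HEL (difference 0.17, adjusted p = 0.29). Nor was it called for IDO1, which starts the tryptophan route, with a fall of 0.43 in UKE1 and -0.13 in HEL (difference -0.29, adjusted p = 0.0729). IDO1 was low, with group means from 3.72 to 4.14, under the low-value filter of 5.

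Of 19 other enzymes that consume NAD+, 3 rose and 6 fell in UKE1, and 4 rose and 3 fell in HEL, with list medians of 0.01 and -0.05. Their shares of calls, 47.4% and 36.8%, were near the 44.3% and 42.4% of all genes. The difference in response between the lines was called for 42.1% of the 19, against 23.9% of all genes. It was above 0 for 3 called genes and below 0 for 5, of which some are named here. TIPARP, a mono-ADP-ribosyltransferase, rose by 0.64 in UKE1 and 0.57 in HEL. PARP9 and PARP14, members of the same enzyme family linked to interferon responses, fell by 1.03 and 0.54 in UKE1. In HEL PARP9 had 0.04 (adjusted p = 0.708) and PARP14 rose by 0.29, and the differences between the lines were -1.07 and -0.83 (adjusted p = 5.73e-06 and 3.76e-05). PARP10 fell by 0.45 in UKE1 and 0.27 in HEL. PARP2, which senses DNA breaks, had 0.09 in UKE1 and fell by 0.31 in HEL (difference 0.40, adjusted p = 0.0124). PARP16 had -0.05 in UKE1 and rose by 0.50 in HEL (difference -0.55, adjusted p = 0.0136), and PARP15 had 0.07 in UKE1 and fell by 0.40 in HEL (difference 0.47, adjusted p = 0.0321). PARP15 was low in UKE1, with means of 3.49 with ITF2357 and 3.42 without, against 6.43 and 6.83 in HEL. SARM1, an NAD+ hydrolase known from axons, rose by 0.28 in UKE1 and had -0.05 in HEL (difference 0.34, adjusted p = 0.0448). The tankyrase TNKS rose by 0.25 in UKE1 and 0.20 in HEL.

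Among 16 measured regulators of SIRT1, 2 rose and 7 fell in UKE1, and 2 rose and 6 fell in HEL. The shares called were 56.2% in UKE1 and 50% in HEL, against 44.3% and 42.4% of all genes, and the list median was -0.14 in UKE1 and -0.13 in HEL. CCAR2, which binds and inhibits SIRT1, fell by 0.59 in both lines (adjusted p = 3.82e-06 in UKE1 and 4.23e-06 in HEL). USP22, a ubiquitin protease that stabilises SIRT1, fell by 0.66 in UKE1 and 0.49 in HEL, and CTBP1, a corepressor at the SIRT1 gene, by 0.70 and 0.47. Of the kinases known to phosphorylate SIRT1, DYRK1A fell by 0.83 in UKE1 and 0.51 in HEL, DYRK3 rose by 0.75 and 0.77, and MAPK8 rose by 1.12 and 0.63. Both known inhibitors and known stabilisers of SIRT1 were among those that fell.

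Substrates went both ways. Of 26 measured substrates or partners of the nuclear and cytosolic sirtuins, 9 rose and 10 fell in UKE1, and 5 rose and 10 fell in HEL, with a list median of -0.01 in both lines. That is 73.1% called in UKE1 and 57.7% in HEL, against 44.3% and 42.4% of all genes. FOXO4, a forkhead factor, rose by 0.81 in UKE1 and 1.22 in HEL, the acetyl-CoA synthetase ACSS2 by 0.63 and 0.83, and the tubulin gene TUBA1A by 0.57 and 0.95. The acetyltransferase KAT5 fell by 1.21 and 1.26, the DNA repair gene NBN by 1.08 and 1.09, and GABPB1, a partner of an ETS factor in transcription of mitochondrial genes, by 1.07 in each line. UBTF, a factor of ribosomal RNA transcription that SIRT7 binds, fell by 1.58 in UKE1 and 0.60 in HEL (difference -0.98, adjusted p = 6.22e-06), while SIRT7 itself rose in both.

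Of 26 measured substrates of mitochondrial sirtuins, 10 rose and 10 fell in UKE1 and 9 rose and 8 fell in HEL. The shares called were 76.9% in UKE1 and 65.4% in HEL, against 44.3% and 42.4% of all genes, and the list median was -0.13 in UKE1 and 0.03 in HEL. The number that fell in UKE1 was 6 without untreated UKE1 replicate 1 and 5 without treated UKE1 replicate 3. SOD2, the superoxide dismutase that SIRT3 activates, rose by 0.67 in UKE1 and 0.70 in HEL (adjusted p = 1.54e-06 and 1.18e-06), and ECHS1, of fatty acid oxidation, by 0.43 and 0.60. PDHX of the pyruvate dehydrogenase complex rose by 0.47 and 0.36, and SDHA of complex II had 0.17 in UKE1 and rose by 0.44 in HEL. PPIF, the cyclophilin of the permeability pore, fell by 0.61 and 0.75, MLYCD, a malonyl-CoA decarboxylase that SIRT4 targets, by 0.43 in each line, NDUFA9 of complex I by 0.55 and 0.33, and the protease LONP1 by 0.24 and 0.43. Of the 11 zinc-dependent histone deacetylases, 4 rose and 3 fell in UKE1 and 4 rose and 1 fell in HEL, with HDAC3 (1.11 and 1.16) and HDAC11 (1.13 and 1.36) the highest rises. Their shares of calls were 63.6% in UKE1 and 45.5% in HEL, against 44.3% and 42.4% of all genes. The HEL share is near that of all genes and is no result about the list. The number that fell in HEL ran from 0 to 2 over the settings, with 0 without untreated HEL replicate 1 or treated HEL replicate 2. HDAC5 also rose, by 0.34 and 0.64. HDAC8 fell by 0.41 and 0.20, and HDAC2 and HDAC7 fell by 0.25 and 0.75 in UKE1, with -0.13 and -0.16 in HEL.

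**Figure D4:**
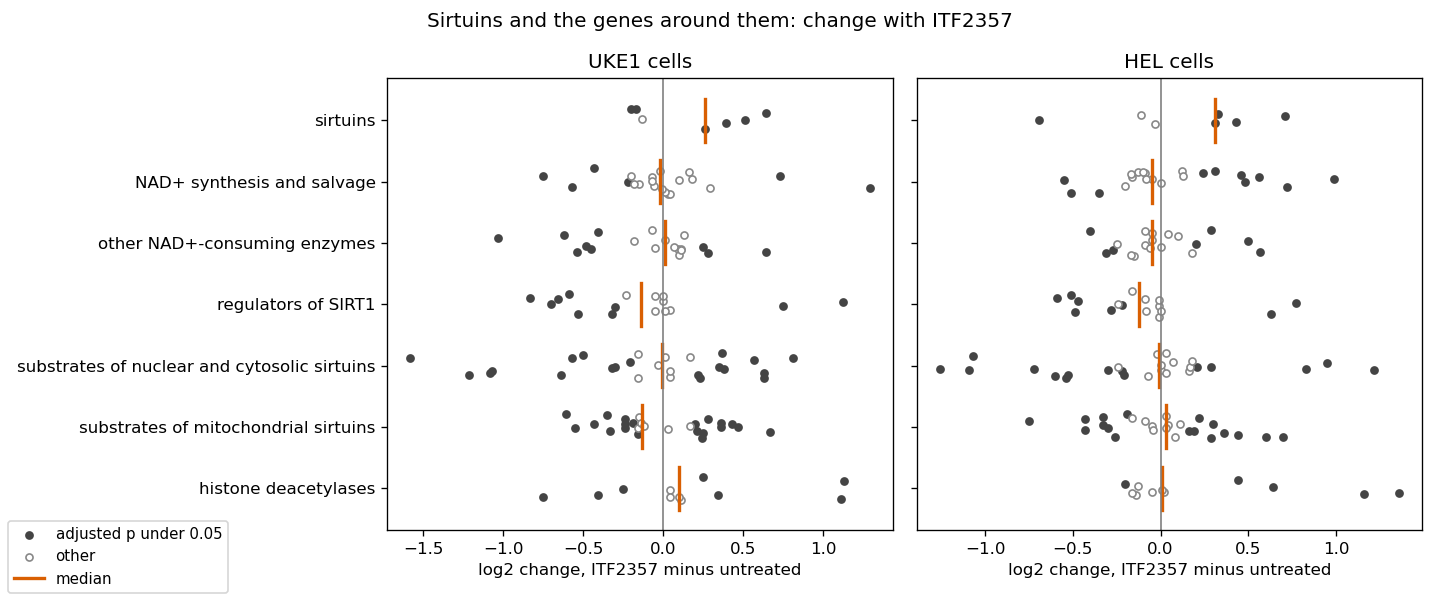
Log2 change with ITF2357 of the 7 sirtuins and of every measured gene of the 6 lists, in UKE1 (left) and HEL (right); filled points passed the threshold and the bar is the list's median. The sirtuin medians are 0.26 and 0.31, and those of the other lists lie between -0.14 and 0.10.

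Genes with the most similar pattern to each sirtuin were ranked by Pearson's r over the 12 arrays. These arrays form 4 groups, so r reads mainly the group means, and it is given as a description. IARS1, NOL8 and PALB2 were nearest to SIRT1 (r = 0.989, 0.977 and 0.976), and PCYOX1, FBXL20 and SYNGR2 to SIRT2 (0.988, 0.987 and 0.985). IARS1, the cytosolic isoleucyl-tRNA synthetase, fell by 0.19 in UKE1 and 0.55 in HEL. PCYOX1, a prenylcysteine oxidase, rose far more than SIRT2, by 1.66 in UKE1 and 1.81 in HEL. ATP6V0C, UBAP2 and EPN1 were nearest to SIRT3 (0.988, 0.983 and 0.983), and HPCAL1, TMEM51 and ANKRD13B to SIRT4 (0.966, 0.957 and 0.953).

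POLE2, ZNF367 and DNAAF5 were nearest to SIRT5, each at r = 0.972. POLE2, a subunit of a replicative DNA polymerase, fell by 0.76 in UKE1 and 0.27 in HEL. ANKRD31, CPSF4 and RGS10 were nearest to SIRT6 (0.982, 0.971 and 0.961). ANKRD31 was low, with group means from 3.15 to 3.99. The closest match of all was between SIRT7 and TPRG1L at 0.996, followed by ACAD8, a mitochondrial acyl-CoA dehydrogenase, and SUPT4H1, an elongation factor, both at 0.994. ACAD8 rose by 0.85 in UKE1 and 0.46 in HEL, against 0.51 and 0.31 for SIRT7. Among the sirtuins themselves, r over the 12 arrays was -0.88 between SIRT1 and SIRT2, 0.84 between SIRT2 and SIRT4, and -0.92 between SIRT5 and SIRT7.

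The genes beside the sirtuins in the RefSeq table were read on the same arrays. The RefSeq start of SIRT2 lies 48 bases from that of NFKBIB, an inhibitor of NF-kappaB, which is read the opposite way. NFKBIB had a log2 change of -0.03 in UKE1 (adjusted p = 0.73) and 0.15 in HEL (adjusted p = 0.06), where SIRT2 rose by 0.64 and 0.71. The start of SIRT3 lies 45 bases from that of PSMD13, which was not analysed here. RIC8A, whose annotated span overlaps that of SIRT3 at the other end, had 0.09 in UKE1 (adjusted p = 0.335) and rose by 0.37 in HEL (adjusted p = 0.000727). How far such overlap touches the SIRT3 row was not tested. The start of SIRT6 lies 126 bases from that of ANKRD24, which is read the opposite way. ANKRD24 rose by 0.35 in UKE1 and had -0.10 in HEL (difference 0.45, adjusted p = 0.00265), while SIRT6 was called in neither line. MAFG, a small MAF factor beside SIRT7, fell by 0.77 in UKE1 and 0.51 in HEL, while SIRT7 rose. PXN, which codes for the adhesion protein paxillin and is read away from SIRT4, rose by 0.24 in UKE1 and 0.20 in HEL, as SIRT4 rose. DNAJC12, on the side of the SIRT1 start, rose by 0.37 and 0.59, while SIRT1 fell.

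Within a group, r between arrays was 0.994 to 0.996, and no arrays were identical. The labelled erythroid identity was read from marker genes. The embryonic globin HBE1 averaged 5.19 in untreated UKE1 and 12.95 in untreated HEL, and GATA1 7.46 and 10.28. Of the 9 erythroid markers measured, 8 were lower in untreated UKE1 than in untreated HEL, and RHAG was higher. The T-cell receptor chain CD3D was at 9.15 in untreated UKE1 and 4.30 in untreated HEL, and CD3E and CD3G differed the same way. The array gives no value that marks a gene as absent, and the part of lineage in the sirtuin differences between the lines was not tested. In such bulk samples, fewer cells of a kind and less RNA per cell cannot be told apart.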

How the data were processed

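Expression was measured on 12 Affymetrix Gene ST arrays, 4 groups of 3. The authors processed them with Affymetrix Expression Console and RMA, per the submitters' processing notes. No version of these tools is known here. The values as deposited run between 1.26 and 14.36 and were taken to be log2, a base inferred from that span. Of 33297 rows, 19460 carry a single gene symbol in GEO's platform annotation. The row with the highest mean per symbol was kept, leaving 18417 genes. Of the 19460 rows, 19429 matched the RefSeq gene table of GRCh38.p14 by gene ID, which gave the neighbours. The array annotation names no build.

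With limma 3.58.1 in R 4.3.3 (lmFit, eBayes), 1 mean per group was fitted without a replicate block, with 8 residual degrees of freedom. P-values were two-sided and adjusted over all genes by Benjamini and Hochberg's method, with a threshold of 0.05. The script was tested on simulated data. With 3 arrays a group, precision is limited by their number.

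The replicate numbers were not taken as pairs, since same-numbered arrays did not deviate together (r between -0.09 and 0.12). Between treated and untreated UKE1 the same-numbered array was the closest partner of each replicate, but only at r = 0.03. Alternatives covered the normalization, the filter on low values (mean under 5), the row per gene, the rows tested, the arrays in the fit, the variance prior, the replicate block and leaving out each array.

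The members and lists were chosen with earlier results of these data known. The genes named are the 7 sirtuins, those of smallest adjusted p in each list (at most 3 per direction and line), the 3 genes most alike each sirtuin, and the nearest genes on either side, of which some are described. NAMPT and NAPRT fall outside this rule. Genes of the lists that lack such a row were left out.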

Additional observations from a re-analysis of the deposited data

Results flagged for a closer look

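SIRT1 fell with ITF2357 in both lines, and the response in UKE1 minus that in HEL was 0.49 on the log2 scale (adjusted p = 0.00286 for the difference itself, limma). It was singled out because the change with the drug differed between the cell lines by a test of that difference. The log2 change was -0.20 in UKE1 and -0.69 in HEL, and the UKE1 call was lost in 7 of 20 other settings, with adjusted p-values from 0.053 to 0.114.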

How the results depend on the processing

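Each value was recomputed under 20 other settings, or 19 for the average and the difference in response, which a fit of only the groups compared cannot give. Of 42 pairs of sirtuin and contrast, 31 kept their direction and their side of the threshold in all settings run. The sirtuins called numbered 5 in HEL, 6 between the treated lines and 5 between the untreated lines in every setting. In UKE1 they numbered 6, and 3 to 6 when single arrays were left out, with 3 called without untreated UKE1 replicate 2 or treated UKE1 replicate 2. With the replicate number as a block (replicate block), 5 were called in UKE1 and 5 in HEL, since SIRT5 in UKE1 was lost (adjusted p = 0.0637). This block changed no other call of a sirtuin. After quantile normalization 2 members, SIRT1 and SIRT7, differed in response between the lines, against 1 otherwise. The steps between neighbouring groups that were called numbered 14, and 11 to 14 over all settings that gave them.

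SIRT4 changed sign where its value was near 0. Without single arrays, its difference between treated lines ran from -0.11 to 0.06 (0.00 without treated HEL replicate 1 or treated UKE1 replicate 2), its difference in response from -0.14 to 0.03 and its difference between untreated lines from -0.03 to 0.09, none called. The average change of SIRT5 was -0.12 without untreated UKE1 replicate 2 (adjusted p = 0.05, just past the threshold).

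With all 33297 rows tested, 19169 were called between the treated lines and 19147 between the untreated lines, against 12525 and 12471 of 18417 genes. These counts were higher as more features were tested, while the shares called were lower, 57.6% and 57.5% against 68.0% and 67.7%. Among the genes whose response differed between the lines, 42.2% had a more positive change in UKE1, and 30.6% when the arrays were centred on their medians (1370 higher and 3102 lower, against 1854 and 2541), which moved the median of all genes by under 0.1. The lists' total counts of calls stayed within 1.5 times in all settings, but their splits into rises and falls moved more for NAD+ synthesis and mitochondrial substrates in UKE1 and for the histone deacetylases in HEL.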
